A study of Homo sapiens with 6 samples.

Results

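HEK293 cells, an established human line derived from embryonic kidney, were measured 30 min after the addition of 50 mM sodium salicylate and set against cells that received none. The comparison took all arrays that the labels place in these groups: 2 treated and 2 untreated, which is 4 of the 6 arrays of the series. The other 2 arrays came from cells kept in the same dose for 60 min. They entered the model to estimate the spread and are shown beside the 30 min values. Cells of all groups grew at body temperature in high-glucose DMEM with fetal bovine serum and antibiotics, per the labels, and salicylate was diluted from a concentrated stock in water. The labels name no array of cells given water or another salt, so handling, the added salt and salicylate itself cannot be told apart. Whether separate cultures gave the 2 arrays of a group is not stated in the labels. The p-values therefore measure only how far these samples spread, and that spread may be technical.

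Salicylate, the compound into which the body turns aspirin, is known for inhibiting prostaglandin synthesis, for blocking the kinase that activates NF-kappaB, for activating the AMP-activated kinase and, at high doses, for uncoupling mitochondrial respiration. Genes known to respond early after a stress include the immediate early transcription factors and the GADD45 stress sensors. Short structural RNAs belong to another kind of transcript: RNA polymerase III makes 5S ribosomal RNA, 7SK and the RNA parts of RNase P and RNase MRP, while small nucleolar RNAs guide the modification or cleavage of ribosomal RNA and are mostly cut out of introns of other genes. Most of these RNAs lack a poly(A) tail when mature, and the labels describe amplification from an oligo(dT) primer. Their values below are signal from molecules copied from that primer. A change in the amount of such an RNA and a change in the share that was copied cannot be told apart.

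Of the 47323 probes on the array, 22377 had a detection p-value under 0.05 on at least 2 of the 6 arrays and were kept; they stand for 12547 named genes. The arrays detected between 20726 and 21740 probes each, and over the kept probes the log2 values of any 2 arrays correlated at 0.991 or above. Of 11 marker genes of HEK293 cells 10 were kept, with the neurofilament gene NEFM, the vimentin gene VIM and the keratin gene KRT8 all at or above a log2 level of 11.9 on every array. Of the markers of endothelium 0 of 5 were kept, of blood cells 2 of 6 (CD14 and CD68) and of fibroblasts 3 of 5. The summed linear intensity of the blood markers was 757.3 and 830.8 in the controls against 819.9 and 912.5 at 30 min, and that of the fibroblast markers 230.6 and 247.2 against 234.2 and 239.0; 0 of these 15 marker genes passed the test of limma at 30 min, and CD14 alone had an unadjusted p under 0.05.

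At 30 min the test of limma called 52 of the 22377 probes (0.232%) at an adjusted p under 0.05, 24 higher (0.107%) and 28 lower (0.125%) than in untreated cells. An unadjusted p under 0.05 was reached by 2302 probes and by 1339 of the 12547 genes (10.7%). Among the called probes 23 changed at least 2-fold, 15 higher and 8 lower, and the median size of a called change was 0.92 on the log2 scale. Without background correction 4 of these 52 probes, all higher, reached 2-fold, and the median size was 0.62. The number of called probes changed with the model, with single arrays and with the scaling. It was 7 (6 higher, 1 lower) in a fit without an intensity trend in the variance, in which 36 of the 40 gene calls below were lost. It was 16 without control replicate 1, 19 without control replicate 2, 23 without 30 min replicate 1, 91 without 30 min replicate 2, and 208 and 190 without 60 min replicates 1 and 2. Scaling by medians in place of quantiles gave 45 higher and 100 lower. Where a gene had several kept probes, the brightest over the 6 arrays was taken to stand for it. On that probe 40 genes (0.319%) were called, 19 higher (0.151%) and 21 lower (0.167%). Small structural RNAs made up 19 of the 40: 13 small nucleolar RNAs (6 higher, 7 lower) and 6 others (5 higher, 1 lower). The other called genes were 17 protein-coding genes (8 higher, 9 lower) and 4 long noncoding RNAs or transcribed pseudogenes, all lower. Of the 12547 genes tested 106 were nucleolar or Cajal body RNAs, and 14 of these 106 were called. The shares of the other kinds among all tested genes are not given here, so their counts cannot be set against a background. The values of the 2 treated and the 2 untreated arrays did not overlap for any of the 40, as was so for 43% of all kept probes.

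RNA5S9 encodes 5S RNA, a component of the large ribosomal subunit. It had log2 levels of 8.25 and 8.15 in the controls, 11.44 and 11.43 at 30 min and 12.13 and 12.04 at 60 min. Both treated arrays lay far above both controls and within 0.01 of each other. In linear normalized intensity this was 304.6 and 284.2 against 2773 and 2760, a 9.4-fold rise (log2 change 3.23 ± 0.07, SE of the fit, n = 2 arrays per group as in all values that follow, adjusted p = 6.35e-11). Many copies of 5S genes exist in the genome, and the probe may have read any of them. In bulk RNA, a change in every cell and a change in a share of the cells cannot be told apart. RMRP, the RNA of RNase MRP, which cleaves the precursor of ribosomal RNA, stood at 5.31 and 5.52 in the controls, 6.96 and 6.72 at 30 min and 7.62 and 7.67 at 60 min. Neither control array had it above background, so its rise is a bound of at least 2.26-fold, set against the lowest detected signal of those arrays (adjusted p = 0.00184). Its fitted change was 1.43, and 0.64 when no background was subtracted. RPPH1, the RNA of RNase P, which trims the leader of transfer RNAs, had levels of 7.59 and 7.60, then 8.70 and 8.45, and 8.79 and 9.12 at 60 min. The treated arrays were all higher, by 0.98 ± 0.13 at 30 min (adjusted p = 0.00503). RN7SK, the 7SK RNA that keeps the elongation factor P-TEFb inactive, went from 8.79 and 8.86 to 9.40 and 9.44, and to 10.33 and 10.34 at 60 min. Its rise at 30 min was 0.60 ± 0.08 (adjusted p = 0.00489), and a second, dimmer probe of the same RNA, below detection on both control arrays, was at least 1.93-fold higher (adjusted p = 0.00339).

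These 4 were the members called among 13 tested transcripts of RNA polymerase III, with none lower. Of the 13, 9 had an unadjusted p under 0.05, and their median log2 change was 0.33 against -0.00415 over all 12547 genes. RMRP passed the detection filter through treated arrays alone, so its place in these counts and in the median of the 13 is not independent of its rise. Of the 9 not called, VTRNA2-1 (0.60), the U6atac spliceosomal RNA gene RNU6ATAC (0.56) and the Y RNA gene RNY5 (0.33) had positive changes that did not pass the test. RN7SL1, the RNA of the signal recognition particle, had -0.24. The 45S ribosomal RNA unit, made by RNA polymerase I, was read by RNA18SN5 (-0.53, adjusted p = 0.341) and RNA28SN5 (-0.10, adjusted p = 0.906). At 30 min 0 of 2 was called and 1 had an unadjusted p under 0.05. A second kept probe of RNA28SN5 changed by -0.37 at 30 min without a call, and by 0.90 at 60 min (adjusted p = 0.0095 against control). At 60 min 1 of the 2 genes was called higher than control (median 1.02). Of the 28 tested genes for subunits and factors of RNA polymerase III, 0 were called and 3 had an unadjusted p under 0.05 (median 0.02). The calls of RNA5S9 and RMRP held without any single array, and that of RMRP was lost without the intensity trend (adjusted p = 0.068). The call of RPPH1 was lost without 30 min replicate 1 (adjusted p = 0.0686), control replicate 1 (0.112) or control replicate 2 (0.0808), and that of RN7SK without control replicate 1 (0.112).

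**Figure D1:**
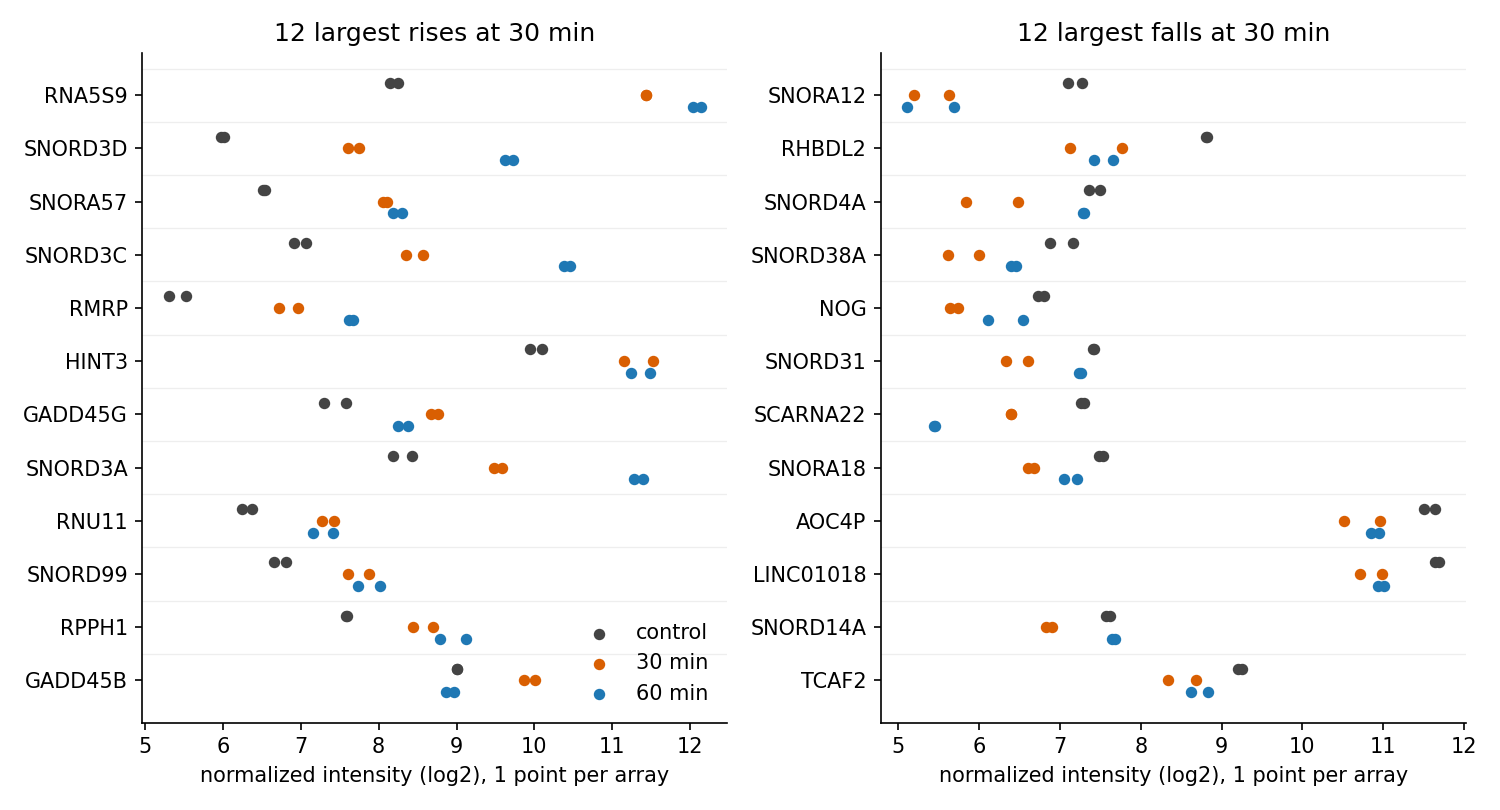
Log2 normalized intensity (x axis) of the 12 called genes with the largest rise (left) and the 12 with the largest fall (right) after 30 min of salicylate, with 1 point per array, 2 arrays in each of the control, 30 min and 60 min groups. RNA5S9 moves from about 8.2 to 11.4 at 30 min, and the U3 genes SNORD3A, SNORD3C and SNORD3D lie higher again at 60 min than at 30 min.

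U3, the small nucleolar RNA that takes part in the first cleavages of the ribosomal RNA precursor, is read here by 3 genes, and all 3 rose. SNORD3D had log2 levels of 5.97 and 6.01 in the controls, 7.74 and 7.60 at 30 min and 9.62 and 9.73 at 60 min, a 3.21-fold rise at 30 min (1.68 ± 0.11, adjusted p = 2.76e-05). SNORD3C went from 7.06 and 6.92 to 8.35 and 8.57, and to 10.38 and 10.46 at 60 min (1.47 ± 0.10 at 30 min, adjusted p = 3.37e-05). SNORD3A went from 8.42 and 8.18 to 9.59 and 9.48, and to 11.28 and 11.40 (1.23 ± 0.09, adjusted p = 4.09e-05). The 3 groups of arrays did not overlap for any of these genes, with untreated cells lowest and cells at 60 min highest. Each of the 3 calls held without any single array, and that of SNORD3A was lost without the intensity trend (adjusted p = 0.076). Without background correction the changes of SNORD3D and SNORD3C were 0.87 and 0.97. U3 genes are near-identical copies, so the 3 probes may share targets and are not independent readings.

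Outside U3 the nucleolar RNAs moved in both directions. Among 47 tested C/D box RNAs, which guide methylation of ribosomal RNA, 2 rose, 4 fell and 18 had an unadjusted p under 0.05 (median 0.03). Among 47 tested H/ACA box RNAs, which guide pseudouridylation, 1 rose, 3 fell and 18 had an unadjusted p under 0.05 (median -0.13). Of 9 tested small RNAs of Cajal bodies, which modify spliceosomal RNAs, 0 rose, 1 fell and 3 had an unadjusted p under 0.05 (median -0.03). Over all genes 0.151% were called higher, 0.167% were called lower and 10.7% had an unadjusted p under 0.05. These are the members that passed the detection filter, 47 of 173, 47 of 101 and 9 of 24 with a probe, so the counts do not cover the RNAs too dim to be read. SNORA57, an H/ACA RNA, had levels of 6.54 and 6.52 in the controls and 8.11 and 8.05 at 30 min, with 8.30 and 8.19 at 60 min. It was 2.93-fold higher at 30 min (1.55 ± 0.12, adjusted p = 4.09e-05), its call held without any single array, and the change was 0.92 without background correction. The C/D RNA SNORD99 went from 6.81 and 6.66 to 7.60 and 7.88 (1.01 ± 0.14, adjusted p = 0.0102), and SNORD48 rose by 0.89 ± 0.16 (adjusted p = 0.0452). RNU11, the U11 RNA of the minor spliceosome, was the 1 called member of 7 tested spliceosomal RNAs. It went from 6.25 and 6.37 to 7.28 and 7.42 (1.04 ± 0.15, adjusted p = 0.0102), while its other kept probe changed by 0.58 without a call. RNU11 and SNORD48 lost their calls when any 1 of the 4 control and 30 min arrays was left out (adjusted p from 0.0661 to 0.185 and from 0.179 to 0.383). SNORD99 lost its call without control replicate 1 (0.112), control replicate 2 (0.179) or 30 min replicate 2 (0.0675). Without background correction the changes of SNORD99, RNU11 and SNORD48 were 0.59, 0.54 and 0.42.

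Of the small RNAs that fell, SNORA12, an H/ACA RNA, had log2 levels of 7.27 and 7.11 in the controls, 5.19 and 5.62 at 30 min and 5.11 and 5.68 at 60 min. All 4 treated arrays had it below the detection threshold, so the fall is a bound of at least 2.83-fold (adjusted p = 0.00503), with a fitted change of -1.78 that was -0.83 without background subtraction. SNORA12 passed the detection filter through the control arrays alone, so its place among the H/ACA RNAs that fell is not independent of its fall. SNORD4A, a C/D RNA, stood at 7.36 and 7.50 in the controls, 5.83 and 6.48 at 30 min and 7.30 and 7.28 at 60 min (-1.27 ± 0.19, adjusted p = 0.014). The 2 treated arrays differed from each other more than the controls did, and both lay below them. SNORD38A went from 7.16 and 6.88 to 5.62 and 5.99 (-1.22 ± 0.18, adjusted p = 0.0143). It was above background on 1 of the 2 arrays at 30 min, so the size of this fall is uncertain. SNORD31 went from 7.41 and 7.43 to 6.33 and 6.61, and was back at 7.24 and 7.26 at 60 min (-0.95 ± 0.14 at 30 min, adjusted p = 0.0143). SNORD14A followed the same course, from 7.58 and 7.62 to 6.83 and 6.91, with 7.68 and 7.64 at 60 min (-0.73 ± 0.12, adjusted p = 0.031). The H/ACA RNA SNORA18 went from 7.49 and 7.53 to 6.61 and 6.68 (-0.86 ± 0.14, adjusted p = 0.0189). SNORA67 had a change of -0.54 (adjusted p = 0.0109) from a higher level, 10.47 and 10.41 in the controls. SCARNA22, a Cajal body RNA, went from 7.30 and 7.26 to 6.40 and 6.40, and to 5.46 and 5.45 at 60 min, where it was no longer above background (-0.88 ± 0.16 at 30 min, adjusted p = 0.0494). SCARNA13 had a change of similar size that missed the threshold (-0.93, adjusted p = 0.0897) and passed it with the control and 30 min arrays alone (0.0259). Without background correction the changes of SNORD4A, SNORD38A, SNORD31, SNORD14A, SNORA18 and SCARNA22 were between -0.65 and -0.42. All 8 calls of falling small RNAs were lost without control replicate 1 (adjusted p from 0.137 to 0.519) and without control replicate 2 (0.0808 to 0.429), 7 without 30 min replicate 1 (0.0567 to 0.403) and 4 without 30 min replicate 2 (0.0527 to 0.13), with the same sign each time.

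Since most nucleolar RNAs lie in introns, each small RNA was set beside the protein-coding or long noncoding gene whose RefSeq span (GRCh38.p14) contains it, wherever that gene was tested. Of 106 tested nucleolar and Cajal body RNAs 83 had such a gene. Of the 62 spanning genes 0 were called at 30 min, with a median change of 0.03 and a lowest adjusted p of 0.195; 9 had an unadjusted p under 0.05. Of the called small RNAs in this set, 10 had a tested spanning gene. RPL23A, the ribosomal protein gene around SNORD4A, changed by 0.06 ± 0.07, and RPS13, around SNORD14A, by -0.00201 ± 0.05. The noncoding host SNHG1, around SNORD31, changed by 0.08 ± 0.06, and CWF19L1, around SNORA12, by 0.05 ± 0.07. Around the small RNAs that rose, LBHD1 (SNORA57) changed by 0.03, SNHG12 (SNORD99) by -0.05 and SNHG32 (SNORD48) by 0.00629. TAF1D, around SNORA18, had the largest value, 0.74 ± 0.18 (adjusted p = 0.195), opposite in sign to the small RNA. The change of TAF1D was 0.31 without background correction, and its probe was not above background on all 4 control and 30 min arrays. The difference between a small RNA and its spanning gene was not tested. Of the 14 tested members of a separate list of known snoRNA host genes 0 were called and 4 had an unadjusted p under 0.05 (median 0.11).

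**Figure D2:**
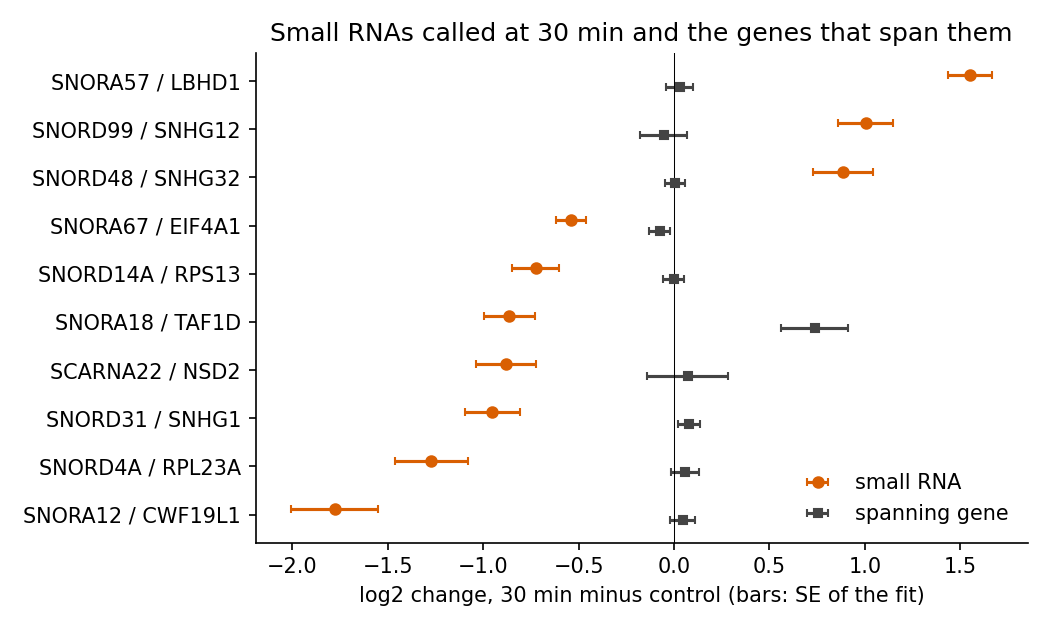
Log2 change from control to 30 min (x axis, bars are the SE of the fit, 2 arrays per group) of 10 called small RNAs (circles) and of the gene that spans each (squares). The small RNAs lie between -1.78 and 1.55, and the spanning genes between -0.08 and 0.08 except TAF1D at 0.74.

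Proteins that bind or trim these RNAs did not pass the test at the level of their transcripts. Of 19 tested genes for proteins of nucleolar RNA particles, RNase P and RNase MRP, 0 were called and 4 had an unadjusted p under 0.05 (median -0.02). POP4, a protein of RNase P and RNase MRP, had 0.29 (adjusted p = 0.381), RPP14 had -0.19 (adjusted p = 0.712) and NOP58, a core C/D box protein, 0.19 (adjusted p = 0.324). Of 22 tested genes of the nuclear exosome and of RNA tail processing, which degrade or trim nuclear RNAs, 0 were called and 4 had an unadjusted p under 0.05 (median 0.04). EXOSC8, an exosome subunit, had -0.46 (adjusted p = 0.206) and MTREX, the exosome's helicase, 0.38 (adjusted p = 0.28). With the control and 30 min arrays alone both passed the threshold (adjusted p = 0.0419 and 0.0362).

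Among protein-coding genes 8 rose at 30 min, and 2 of them encode GADD45 proteins, small stress sensors that bind the MTK1 kinase of the p38 and JNK pathways and cell cycle regulators. GADD45G had log2 levels of 7.58 and 7.30 in the controls, 8.76 and 8.67 at 30 min and 8.25 and 8.38 at 60 min, a 2.42-fold rise at 30 min (1.28 ± 0.12, adjusted p = 0.000293). GADD45B stood at 9.0 on both control arrays, 10.01 and 9.87 at 30 min and 8.97 and 8.87 at 60 min, a 1.91-fold rise (0.94 ± 0.08, adjusted p = 0.000252). At 30 min both genes lay above every control and every 60 min array. Both calls held without any single array and were lost without the intensity trend (adjusted p = 0.076 for each). GADD45A, the third gene of the family, had 9.86 and 10.01 in the controls and 9.98 and 9.96 at 30 min, with overlapping groups. Its change on this probe was 0.03 ± 0.08 (adjusted p = 0.928), and -0.04 without control replicate 1. The other kept probe of GADD45A changed by 0.20 ± 0.07 without a call (adjusted p = 0.369). The difference between GADD45A and the other two was not tested.

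HUS1B, a paralog of the HUS1 checkpoint clamp protein, had 7.87 and 7.87, then 8.62 and 8.62, and 8.11 and 8.07 at 60 min (0.75 ± 0.10 at 30 min, adjusted p = 0.00503). ADM, which encodes the vasodilator peptide adrenomedullin, had 11.44 and 11.39, then 11.88 and 11.93, and 11.39 and 11.55 at 60 min (0.49 ± 0.07, adjusted p = 0.00689). CCNL1, cyclin L1, which takes part in splicing regulation, had 9.67 and 9.64, then 10.07 and 10.11, and 9.78 and 9.68 at 60 min (0.43 ± 0.07, adjusted p = 0.0332). Its other kept probe changed by 0.32 without a call. These 3 genes were high on both 30 min arrays and close to control on both 60 min arrays. RASD1, a Ras-related protein first described as dexamethasone-induced, had 6.84 and 6.98 in the controls against 7.81 and 7.84 at 30 min and 7.86 and 7.89 at 60 min (0.91 ± 0.12, adjusted p = 0.00503, and 0.55 without background correction). HINT3, a nucleotide hydrolase of the histidine triad family, had 10.10 and 9.94 against 11.52 and 11.15, and 11.24 and 11.48 at 60 min (1.31 ± 0.11, adjusted p = 0.000182). A second kept probe of HINT3 changed by 0.04, so its rise rests on 1 probe. ZNF256, a zinc finger gene, changed by 0.39 ± 0.07 (adjusted p = 0.0452). Without control replicate 1 the calls of RASD1, HUS1B, ADM, CCNL1 and ZNF256 were lost (adjusted p from 0.112 to 0.341), as they were without 30 min replicate 1 (0.0552 to 0.479). Without control replicate 2 the last 4 of these were lost (0.0844 to 0.466), and without 30 min replicate 2 only CCNL1 and ZNF256 were (0.13 and 0.0944).

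The promoters of the 5 protein-coding genes that were called higher at 30 min and lower again at 60 min than at 30 min are shown because these genes shared that course. Each run is the 250 bases before the RefSeq start in GRCh38.p14, read 5′ to 3′ on the gene's strand, at chr19:2475877-2476126 (plus) for GADD45B, chr9:89604762-89605011 (plus) for GADD45G, chr11:10304823-10305072 (plus) for ADM, chr3:157160148-157160397 (minus) for CCNL1 and chr6:657101-657350 (minus) for HUS1B. Capitals mark the letters of the motifs found among 5 that were searched on both strands.
GADD45B: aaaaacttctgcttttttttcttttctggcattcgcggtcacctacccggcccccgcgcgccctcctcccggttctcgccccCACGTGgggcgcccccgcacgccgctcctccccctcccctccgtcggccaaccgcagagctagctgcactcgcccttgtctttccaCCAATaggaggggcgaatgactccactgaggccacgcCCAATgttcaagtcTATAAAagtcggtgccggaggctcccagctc
GADD45G: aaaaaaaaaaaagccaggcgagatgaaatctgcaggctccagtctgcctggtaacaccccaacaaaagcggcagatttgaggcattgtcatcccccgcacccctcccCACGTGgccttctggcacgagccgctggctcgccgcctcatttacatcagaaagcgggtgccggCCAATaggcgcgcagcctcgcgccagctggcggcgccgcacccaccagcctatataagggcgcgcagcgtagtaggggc
ADM: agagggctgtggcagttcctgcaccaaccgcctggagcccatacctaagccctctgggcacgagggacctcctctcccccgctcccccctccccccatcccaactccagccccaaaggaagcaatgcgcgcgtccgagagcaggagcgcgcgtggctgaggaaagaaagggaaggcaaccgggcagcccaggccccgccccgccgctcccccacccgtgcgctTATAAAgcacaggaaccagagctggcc
CCNL1: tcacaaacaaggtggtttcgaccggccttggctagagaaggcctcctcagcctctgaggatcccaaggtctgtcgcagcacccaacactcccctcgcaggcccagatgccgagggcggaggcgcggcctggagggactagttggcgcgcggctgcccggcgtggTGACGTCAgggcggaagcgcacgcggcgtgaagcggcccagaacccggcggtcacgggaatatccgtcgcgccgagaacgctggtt
HUS1B: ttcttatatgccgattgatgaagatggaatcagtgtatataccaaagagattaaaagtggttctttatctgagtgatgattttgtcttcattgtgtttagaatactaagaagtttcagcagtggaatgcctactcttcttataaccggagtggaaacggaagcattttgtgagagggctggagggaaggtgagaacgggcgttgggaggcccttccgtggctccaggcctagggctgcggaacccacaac
The letters searched were TATAAA (the TATA box, in 10.7% of 35116 promoters of that length), CCAAT (32.0%), CACGTG (an E box, 6.34%), TGACGTCA (the cyclic AMP response element, 1.65%) and TGANTCA (AP-1, 6.57%). GADD45B held TATAAA at -31, CCAAT at -82 and -45 and CACGTG at -168, counted from the start to the first letter of the match. GADD45G held CCAAT at -79 and CACGTG at -143. ADM held TATAAA at -27, CCNL1 held TGACGTCA at -86, and HUS1B held none of the 5. No 2 matches overlapped. Only the exact letters given were searched, so a motif spelled otherwise, such as another form of the TATA box, is not marked. The motifs and genes were chosen after the values were seen, and a match describes letters, not a bound site.

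Genes other than small RNAs that fell at 30 min numbered 13, and the changes of most were small. RHBDL2, a rhomboid protease of the plasma membrane, had log2 levels of 8.82 and 8.81 in the controls, 7.12 and 7.77 at 30 min and 7.65 and 7.42 at 60 min (-1.37 ± 0.17, adjusted p = 0.00503). Its second kept probe changed by -0.00286, so the fall rests on 1 probe. NOG, which encodes noggin, a secreted antagonist of bone morphogenetic proteins, had 6.72 and 6.80, then 5.63 and 5.74, and 6.54 and 6.11 at 60 min (-1.08 ± 0.19, adjusted p = 0.0416). It was above background on 1 of the 2 arrays at 30 min, and its change was -0.47 without background correction. HMOX1, haem oxygenase 1, had 9.39 and 9.40, then 8.79 and 8.68, and 9.16 and 8.88 at 60 min, with both treated groups below the controls (-0.66 ± 0.10 at 30 min, adjusted p = 0.0143). TCAF2, a regulator of the TRPM8 channel, had 9.25 and 9.20 against 8.33 and 8.68 (-0.72 ± 0.12, adjusted p = 0.0263). The other protein-coding genes called lower were CCBE1 (-0.70, with -0.55 on its other probe), a secreted protein needed for lymphatic growth, SPACA6 (-0.65), a sperm protein of fertilization, CDKN2AIPNL (-0.62), ARL16 (-0.57) and KCTD20 (-0.45). The other kept probes of CDKN2AIPNL and ARL16 had changes of the opposite sign, 0.15 and 0.20.

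The 4 long noncoding genes and transcribed pseudogenes that were called all fell. AOC4P, a pseudogene of an amine oxidase, had 11.50 and 11.64 in the controls against 10.51 and 10.96 at 30 min (-0.83 ± 0.11, adjusted p = 0.00689). LINC01018 had 11.64 and 11.69 against 10.71 and 10.98 (-0.82 ± 0.08, adjusted p = 0.000577), and its second kept probe changed by -0.00405. RAMP2-AS1, an antisense gene whose probe was not checked for strand, changed by -0.66 (adjusted p = 0.0394). MIR503HG, the host transcript of miR-503, changed by -0.59 (adjusted p = 0.0296) and stood at 7.92 and 7.78 at 60 min, below its 8.28 on both 30 min arrays. LINC01018 was the 1 call among these 13 genes that held without any single array. Without control replicate 1 the other 12 were lost (adjusted p from 0.103 to 0.505), and without control replicate 2 all of those but SPACA6 (0.0808 to 0.429). Without 30 min replicate 1, 10 were lost (0.0552 to 0.369), and without 30 min replicate 2 NOG, HMOX1 and MIR503HG (0.0717 to 0.0944). The 2 arrays at 30 min were also not alike over the falls: in 22 of the 28 called lower probes (78.6%) replicate 1 was below replicate 2, against 48.5% of all kept probes, with a median gap of -0.25. The part of this array in the falls was not tested beyond the values without it.

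**Figure D3:**
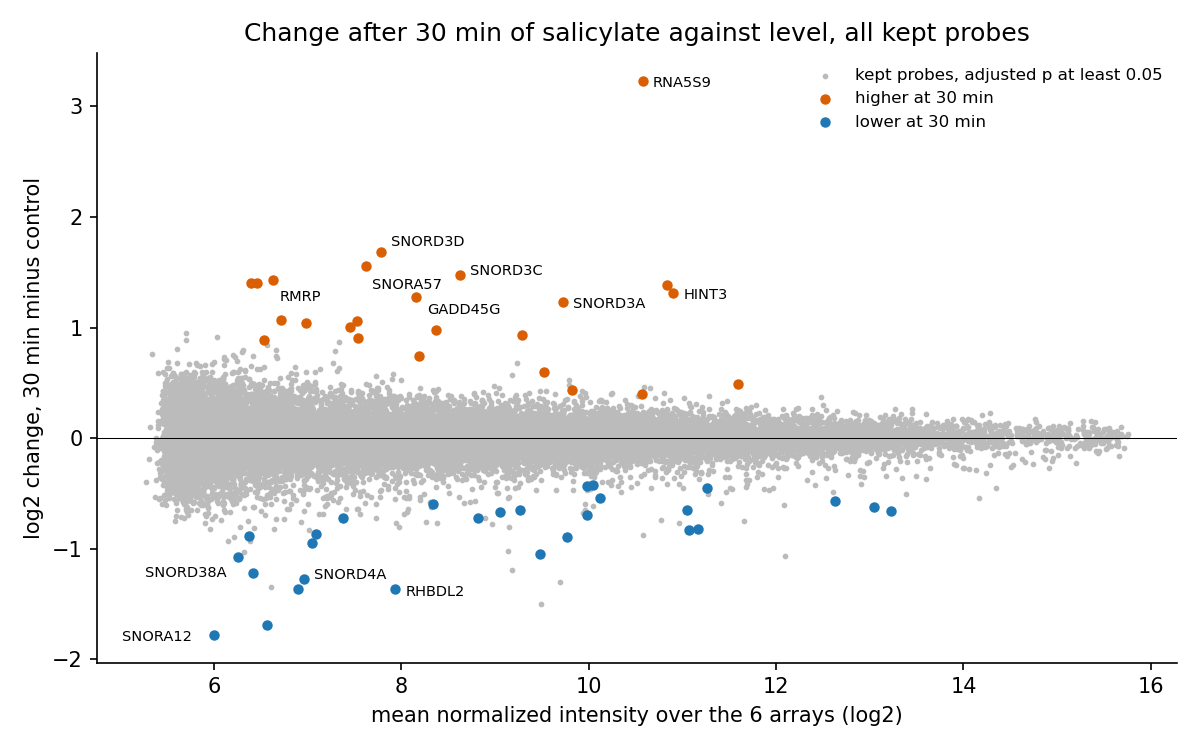
Log2 change from control to 30 min (y axis) against the mean log2 normalized intensity over the 6 arrays (x axis) for all 22377 kept probes, with the 24 called higher and the 28 called lower in colour. Named points are called genes with a change among the largest. RNA5S9 at 3.23 stands apart from the rest, and the other called probes lie between -1.78 and 1.68.

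Of the 9 called genes with another kept probe only RN7SK had that probe called too, and in 7 the other probes had the same sign. Among these 7 the other probes of HINT3, RHBDL2 and LINC01018 barely changed (0.04, -0.00286 and -0.00405). A further 2 genes, PRXL2A (-0.43) and CHRNA5 (-0.42), were called lower on a probe that does not stand for them, while the brighter probe had -0.17 and -0.26 without a call. Of the called probes 9 had no gene name in the annotation, 4 higher and 5 lower. ILMN_3243644 had 9.31 and 9.44 in the controls, 10.78 and 10.74 at 30 min and 12.44 and 12.31 at 60 min (1.38 at 30 min, adjusted p = 1.64e-06). ILMN_3203390 had 5.84 and 5.51 in the controls and 6.81 and 7.35 at 30 min, a rise of 1.40 (adjusted p = 0.0215). Its value on control replicate 2 lay below the lowest detected signal of that array, 5.62, so the size of this rise is uncertain. ILMN_1857335 had 7.25 and 7.20 in the controls, 5.42 and 5.64 at 30 min, where neither array had it above background, and 6.91 and 6.95 at 60 min, a fall of at least 2.91-fold at 30 min (adjusted p = 0.000293). ILMN_3310491 had 11.12 and 11.01 in the controls, 9.88 and 10.17 at 30 min and 7.42 and 7.28 at 60 min, a change of -1.04 at 30 min (adjusted p = 0.000436) and -3.72 at 60 min. The groups of arrays of this last probe did not overlap and lay in the order of time.

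The 60 min arrays show whether the values found at 30 min were still there later. Against control, 3645 probes (16.3%) were called at 60 min, and 3465 (15.5%) differed between 60 and 30 min. The first of these shares its controls with the 30 min comparison. The second shares the 30 min arrays on which the genes were called, and the part of that sharing in a return toward control was not tested. RNA5S9 rose further, by 0.65 from 30 to 60 min (adjusted p = 0.000238), and so did the U3 genes SNORD3D (2.00, adjusted p = 2.05e-06), SNORD3C (1.96, adjusted p = 1.19e-06) and SNORD3A (1.80, adjusted p = 8.31e-07). RN7SK (0.91, adjusted p = 5.22e-05) and RMRP (0.80, adjusted p = 0.0071) rose further too. SNORA57 differed between the times by 0.16 (adjusted p = 0.392) and RPPH1 by 0.38 (adjusted p = 0.0591). GADD45B was lower at 60 than at 30 min (change -1.02, adjusted p = 5.22e-05), and its difference from control at 60 min was -0.08 (adjusted p = 0.564). HUS1B (-0.53), ADM (-0.44), GADD45G (-0.40) and CCNL1 (-0.36) were also lower at 60 than at 30 min. Against control at 60 min, GADD45G was still higher (0.88, adjusted p = 0.000752), while HUS1B, ADM and CCNL1 had 0.22, 0.05 and 0.08 without a call.

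Small RNAs that had fallen divided. SNORD4A (1.13, adjusted p = 0.0029), SNORD14A (0.79, adjusted p = 0.00191), SNORD31 (0.78, adjusted p = 0.00447) and SNORD38A (0.62, adjusted p = 0.0393) were higher at 60 than at 30 min, and so was SNORA18 (0.48, adjusted p = 0.0311). Against control at 60 min the first 3 had -0.14, 0.06 and -0.17 without a call. SNORD38A was above background on 1 of the 2 arrays at 30 min, so the size of its difference is uncertain. SCARNA22 fell further, to below background on both 60 min arrays, so its difference between the times is a bound of at least 1.62-fold (adjusted p = 0.00285). SNORA12 was below detection at both times, so its levels there cannot be compared. Among the other genes NOG was higher at 60 than at 30 min (0.64, adjusted p = 0.0381), while KCTD20 (-0.26) and MIR503HG (-0.42) were lower.

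**Figure D4:**
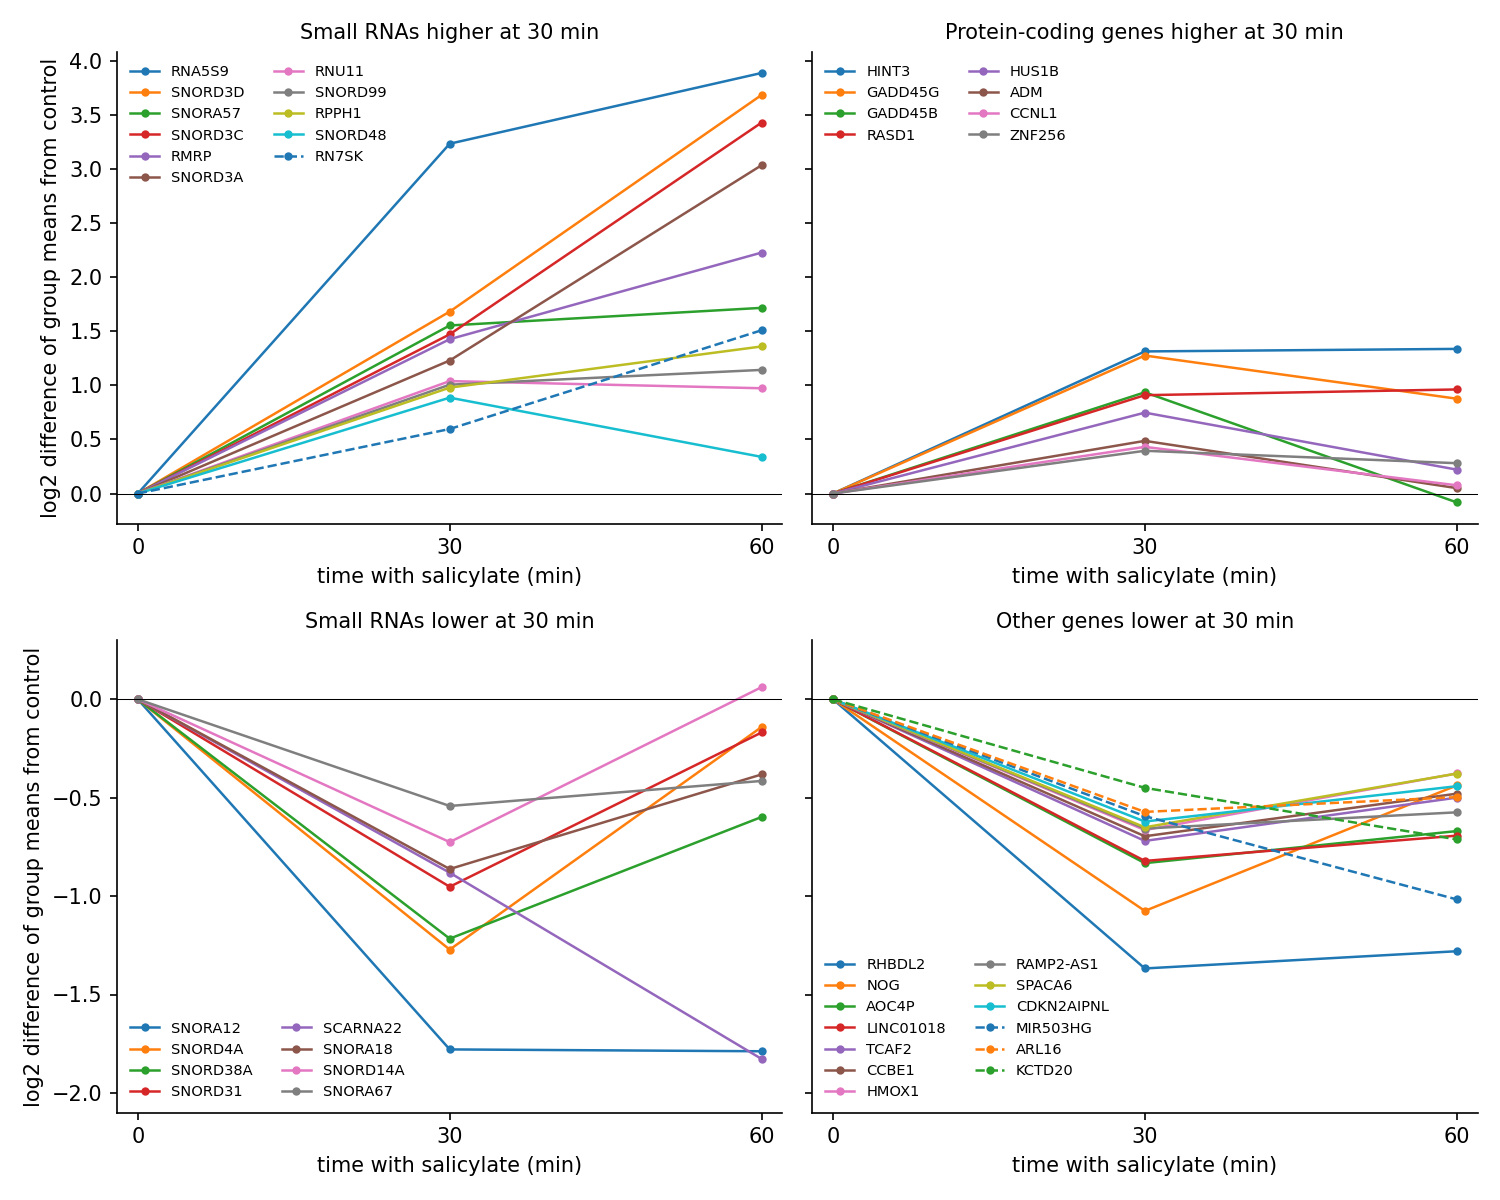
Difference of the group mean log2 level from control (y axis) at 0, 30 and 60 min (x axis) for the 40 called genes, split into small RNAs and other genes that were higher (top) or lower (bottom) at 30 min; each line joins the means of 2 arrays per time, and both times share the control arrays. RNA5S9 and the U3 genes rise on to between 3.03 and 3.89 at 60 min, and GADD45B returns to -0.08.

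Genes that salicylate or an acute stress is known to act on were read as lists, each beside the background of 19 higher and 21 lower among 12547 genes, 10.7% of which had an unadjusted p under 0.05. Of 35 tested immediate early genes 0 were called by limma at 30 min and 4 had an unadjusted p under 0.05 (median -0.00823). FOS had 7.11 and 7.39 in the controls and 7.48 and 7.80 at 30 min (0.39, adjusted p = 0.425), EGR1 changed by -0.16, JUN by -0.20, IER2 by -0.09, ATF3 by 0.15 and MYC by 0.02. At 60 min 1 of the 35 was higher and 19 were lower (median -0.31), beside 8.94% and 10.8% of all genes. Of 14 tested MAP kinase feedback regulators 0 were called at 30 min and 2 had an unadjusted p under 0.05 (median 0.01); DUSP1 had 0.08 and DUSP8 -0.64 (adjusted p = 0.259, and 0.0197 with median scaling).

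Of 23 tested genes of the NF-kappaB pathway 0 were called at 30 min and 2 had an unadjusted p under 0.05. NFKBIA, the inhibitor that NF-kappaB itself induces, had 11.62 and 11.65 in the controls against 11.63 and 11.65 (0.00977 ± 0.07, and -0.000381 with cyclic loess in place of quantiles). Of 11 tested genes of prostaglandin synthesis and its receptors 0 were called and 1, PTGR2, had an unadjusted p under 0.05. PTGS2, the inducible cyclooxygenase, had -0.30 (adjusted p = 0.631), and PTGR2, an enzyme that inactivates prostaglandins, -0.62 (adjusted p = 0.111) on its brighter probe. The other kept probe of PTGR2 had a change of the opposite sign, 0.23, without a call (adjusted p = 0.80). The brighter probe passed the threshold in some other settings, with an adjusted p of 0.0241 for the control and 30 min arrays alone and 0.00772 with median scaling. Of 14 tested genes for AMP-activated kinase and the kinases upstream of it 0 were called and 3 had an unadjusted p under 0.05 (median 0.02). Of 8 tested genes of the MondoA glucose sensor and its targets 0 were called and 0 had an unadjusted p under 0.05: TXNIP had -0.05 and ARRDC4 -0.02 at 30 min, and TXNIP 0.53 at 60 min (adjusted p = 0.000678).

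HMOX1 was the 1 called member, lower, of 14 tested antioxidant targets of NRF2 (median -0.06). ADM was the 1 called member, higher, of 23 tested targets of the hypoxia factor HIF1 (median 0.06), and ANKRD37, another of them, had 0.60 (adjusted p = 0.17). NOG was the 1 called member, lower, of 15 tested early response genes of BMP and TGF-beta (median -0.04). ID2 had -0.31 (adjusted p = 0.152, and 0.0203 with the control and 30 min arrays alone). The other kept probe of ID2 had a change of the opposite sign, 0.20, without a call. ZNF256 was the 1 called of 366 tested ZNF genes (median 0.03), a share of 0.273% beside 0.319% of all genes. An unadjusted p under 0.05 was reached by 59 of the ZNF genes (16.1%). It was reached by 1 of the NRF2 targets, 3 of the HIF1 targets and 2 of the BMP and TGF-beta genes. No member was called among 20 HSF1 heat shock genes (HSPA1A -0.04), 27 genes of the ATF4 stress response (DDIT3 0.25), 17 chaperone genes of the endoplasmic reticulum, 19 p53 targets (CDKN1A -0.09, and BAX -0.58 with an adjusted p of 0.27, and 0.00219 with the control and 30 min arrays alone), 6 metallothionein and zinc response genes or 7 osmotic stress genes (SLC5A3 -0.23). In that order, 2, 6, 0, 4, 1 and 0 of them had an unadjusted p under 0.05. Among 75 cytosolic ribosomal protein genes (median 0.05), 74 subunits of the respiratory chain and ATP synthase (median 0.03) and 40 histone genes 0 were called, and 10, 6 and 2 had an unadjusted p under 0.05. A missed threshold with 2 arrays per group does not show that a gene stayed level: the median SE of a change was 0.12 on the log2 scale.

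**Figure D5:**
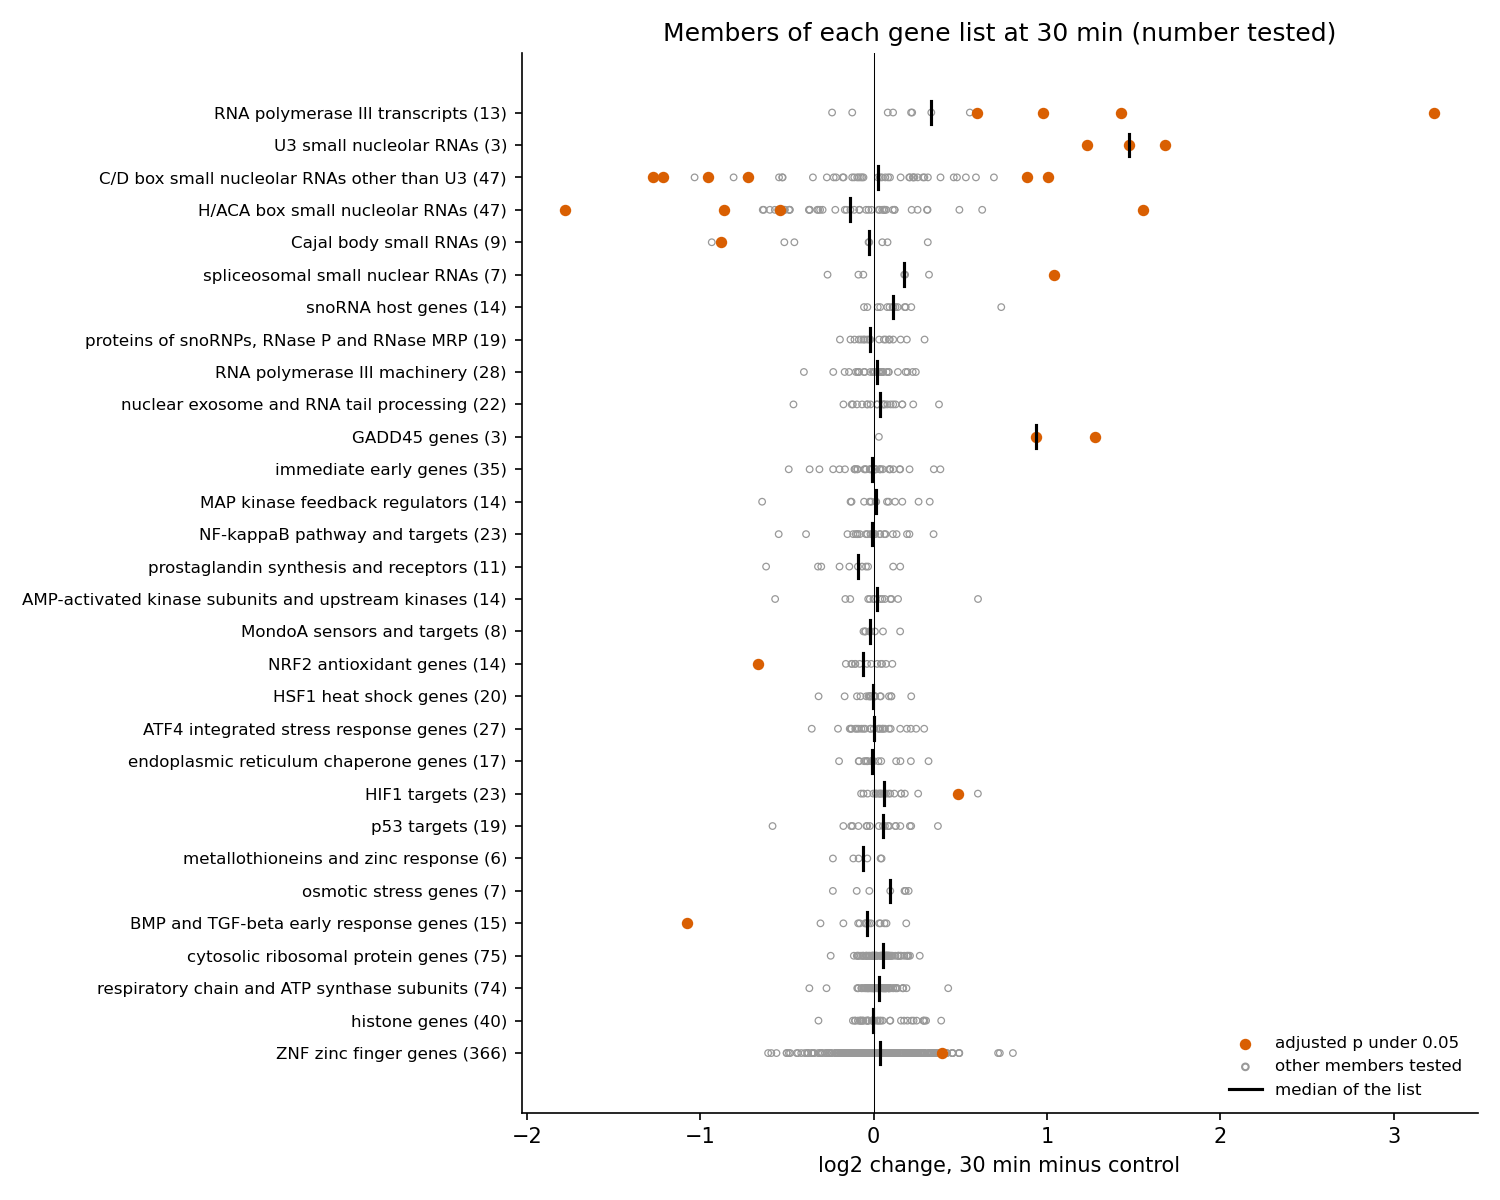
Log2 change from control to 30 min (x axis) of each tested member of the gene lists (rows, number tested in brackets), 2 arrays per group; filled points have an adjusted p under 0.05 and the black bar is the list's median. Called members gather in the rows of small RNAs and GADD45 genes, and most other rows hold 0 or 1.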

How the data were processed

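RNA of 6 samples of HEK293 cells (untreated, 30 min and 60 min of salicylate, 2 each) was amplified to biotinylated cRNA from an oligo(dT) primer with a T7 promoter and hybridised to Illumina bead arrays, per the labels' protocols. The authors deposited a table that gives, for each of 47323 probes and each array, a linear intensity before normalization and its detection p-value. A second deposited table holds log2 values; they differed by at most 0.004 from log2 intensities after quantile normalization without background correction, and each column's median was 7.19. The submitters' processing notes name GenomeStudio 2011.1 and R 2.15.3. The number of value columns without a sample was 0.

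Deposited intensities were background corrected by normexp, with the negative control level taken from the detection p-values, quantile normalized and taken to log2 (neqc, offset 16) in limma 3.58.1 under R 4.3.3. Probes with a detection p-value under 0.05 on at least 2 arrays were kept. Names came from the platform annotation, updated by gene identifier to RefSeq (20020 of 20046 genes found); 30113 probes had 1 name, 8 several and 17202 none in the table used. All arrays were fitted with a mean per group, with 3 residual degrees of freedom and variances moderated toward an intensity trend. Adjusted p-values are Benjamini-Hochberg values of limma over all kept probes, and a probe is called under 0.05. Folds are of normalized intensity. A gene below detection on both arrays of a group has only a bound there. The fit was tested on simulated data.

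Given on every array are the 12 largest rises and 12 largest falls among called genes; the other called genes and up to 4 members of each list (called ones first, then by size) are also named, with a few stress genes whatever their values. The genes, lists and rules were chosen with earlier results of these data known. Alternatives were another background correction, scaling, filter, model or set of arrays. Same-numbered arrays of 2 groups had deviations that correlated at 0.03, 0.08 and -0.08, so no effect shared by equal numbers was visible over all kept probes. Noise of single probes can hide such an effect, so these values cannot show whether the samples were paired.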

Additional observations from a re-analysis of the deposited data

Results flagged for a closer look

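These values stand out because the change from control differed between the 2 times of exposure by the test of 60 against 30 min (limma, adjusted p under 0.05). Both changes share the control arrays, the genes were called on the same 30 min arrays, and with 2 arrays per group no array could be tested as an outlier. Higher at 60 than at 30 min after a rise were SNORD3D (2.00), SNORD3C (1.96), SNORD3A (1.80), RN7SK (0.91), RMRP (0.80) and RNA5S9 (0.65). Lower at 60 than at 30 min after a rise were GADD45B (-1.02), SNORD48 (-0.55), HUS1B (-0.53), ADM (-0.44), GADD45G (-0.40) and CCNL1 (-0.36). Higher at 60 than at 30 min after a fall were SNORD4A (1.13), SNORD14A (0.79), SNORD31 (0.78), NOG (0.64), SNORD38A (0.62), SNORA18 (0.48) and SPACA6 (0.27). Lower still after a fall were SCARNA22, MIR503HG (-0.42) and KCTD20 (-0.26). SCARNA22 was below background on both 60 min arrays, so its fitted -0.95 is no measured size and only a bound of at least 1.62-fold holds. SNORD38A and NOG were above background on 1 of the 2 arrays at 30 min, so their sizes are uncertain.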

How the results depend on the processing

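Over 15 other settings no called gene changed sign. RNA5S9, SNORD3D, SNORA57 and SNORD3C passed the threshold wherever they were tested, and RMRP, HINT3, GADD45G, SNORD3A, GADD45B and LINC01018 in all but the fit without an intensity trend. Of the 40 calls that fit lost 36, leaving 7 probes at 30 min (6 higher, 1 lower) and 718 between 60 and 30 min (382 higher, 336 lower). Median scaling gave 145 probes at 30 min (45 higher, 100 lower) and 2077 between the times (553 higher, 1524 lower). The 4 control and 30 min arrays alone gave 198 (74 higher, 124 lower). Leaving out 1 array at a time gave 16 to 208 probes at 30 min (12 to 80 higher, 4 to 128 lower) and 1313 to 3165 between the times (688 to 1471 higher, 625 to 1694 lower). Of the 40 calls, 30 ended when control replicate 1 was left out and 27 for control replicate 2. The omission of 30 min replicate 1 ended 25 and that of replicate 2 ended 12. Such fits have fewer samples, and the omission of either 60 min array ended 0. Without replicate 2 of the 30 min group the probes called lower rose to 71. Without background correction 48 probes were called (22 higher, 26 lower), but the changes of 16 of the 40 genes were over 1.5 times smaller. The cause of these shifts was not tested. The replicate number as a block gave 39 probes (20 higher, 19 lower) and ended the calls of NOG, SCARNA22, SNORD14A, TCAF2, SNORD48, CCNL1, ZNF256, RAMP2-AS1 and MIR503HG (adjusted p from 0.0617 to 0.138). Of the 108 named genes without a call, 13 passed the threshold in some setting: 8 with the control and 30 min arrays alone, 10 without 60 min replicate 1, 8 without 60 min replicate 2, 5 with median scaling, 3 without 30 min replicate 2 and 1 without control replicate 2. Some listed genes without a call changed sign when 1 array was left out, each with an adjusted p of at least 0.641. Their ranges over the 6 omissions were -0.0434 to 0.105 for GADD45A, -0.0175 to 0.0477 for MYC, -0.0231 to 0.178 for DUSP1, -0.0037 to 0.0232 for NFKBIA, -0.121 to 0.0285 for TXNIP, -0.145 to 0.115 for ARRDC4, -0.245 to 0.163 for HSPA1A, -0.36 to 0.17 for RNA28SN5, -0.132 to 0.0167 for HK2, -0.327 to 0.229 for KLF10, -0.194 to 0.0226 for MT1X, -0.0237 to 0.117 for SLC30A1, -0.157 to 0.562 for SLC6A6 and -0.0445 to 0.415 for SLC6A12. With cyclic loess NFKBIA was -0.000381. The number of arrays and, for dim genes such as RMRP and SNORA12, the signal over background limit the precision.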

Other observations

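Probes that changed at least 2-fold at 30 min without passing the threshold numbered 7, and all 7 were lower. They were noticed after the values were seen. PPP3R1, the regulatory subunit of calcineurin, had log2 levels of 10.16 and 9.86 in the controls, 8.27 and 8.75 at 30 min and 10.74 and 9.20 at 60 min (-1.50 ± 0.34 at 30 min, adjusted p = 0.162 by limma). TAF15, an RNA-binding protein of the FET family, was read by a pair of probes with changes of -1.30 and -1.06. Its brighter probe had 12.57 and 12.29, then 11.20 and 11.53, and 13.12 and 11.85 at 60 min. WTAP, a subunit of the m6A methyltransferase complex (-1.35), EYA4 (-1.19) and TAF5L (-1.02) were the others apart from the C/D RNA SNORD14D (-1.03). In PPP3R1, TAF15, WTAP, EYA4 and TAF5L 60 min replicate 1 lay above replicate 2 by more than 1 on the log2 scale, and the spread in the fit is pooled over the 3 groups. With the 4 control and 30 min arrays alone all 7 probes passed the threshold (highest adjusted p 0.0311, for SNORD14D).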
